A study of Homo sapiens with 72 samples.

Results

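H3K27me3 was profiled by Cut&Tag in Raji, an established Burkitt lymphoma B cell line that carries Epstein-Barr virus, in 3 untreated libraries and 3 libraries of cells exposed overnight to 1 nM bryostatin, a macrolide that modulates protein kinase C. These 6 libraries were chosen by cell line and mark from the 54 libraries with peaks in the series, which covers 3 B-lineage lines and 3 histone marks. The labels name no transgene or deletion for either group, both are cells of a single line, and the untreated cells are the control. Nothing states that the replicates were separate cultures, so the spread between libraries may be technical. The question was whether bryostatin alters where this repressive mark lies, or how much of it lies at a region relative to other regions.

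Cut&Tag directs a Tn5 transposase to an antibody bound on chromatin, so that reads accumulate where the mark is found. Trimethylation of lysine 27 of histone H3 is deposited by Polycomb repressive complex 2, whose catalytic subunit is EZH2 or EZH1, and is read by the CBX proteins of Polycomb repressive complex 1. It forms broad domains over silent developmental genes, typically at promoters rich in the dinucleotide CG, while H3K4me3 marks the starts of active genes. In B cells the HOX clusters and neuronal genes are commonly silent, and PAX5 and CD22 are active.

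The sequences below are the bases before the start of 5 genes, from RefSeq on GRCh38.p14, with every CG in capitals. WNT1, TBX21 and SDC3 are shown because their starts had an H3K27me3 peak in all 6 libraries. RPLP2 and CD22 are shown because their starts had one in untreated replicate 2 alone, the library that stood apart in the results that follow. The stretch for WNT1 is chr12:48978072-48978321 on the plus strand, that for TBX21 chr17:47732986-47733235 on the plus strand, that for SDC3 chr1:30908759-30909008 on the minus strand, that for RPLP2 chr11:809717-809966 on the plus strand, and that for CD22 chr19:35328937-35329165 on the plus strand, cut where an annotated untranslated region begins.
WNT1: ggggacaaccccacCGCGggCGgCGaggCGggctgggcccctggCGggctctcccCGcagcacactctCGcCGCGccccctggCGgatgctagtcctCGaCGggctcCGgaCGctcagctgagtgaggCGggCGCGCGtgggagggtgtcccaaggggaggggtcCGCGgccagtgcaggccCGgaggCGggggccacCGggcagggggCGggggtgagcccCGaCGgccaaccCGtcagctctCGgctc
TBX21: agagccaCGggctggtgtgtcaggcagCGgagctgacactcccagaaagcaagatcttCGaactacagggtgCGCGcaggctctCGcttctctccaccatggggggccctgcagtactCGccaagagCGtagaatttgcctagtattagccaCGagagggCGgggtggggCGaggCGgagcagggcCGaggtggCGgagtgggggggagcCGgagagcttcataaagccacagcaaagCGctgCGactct
SDC3: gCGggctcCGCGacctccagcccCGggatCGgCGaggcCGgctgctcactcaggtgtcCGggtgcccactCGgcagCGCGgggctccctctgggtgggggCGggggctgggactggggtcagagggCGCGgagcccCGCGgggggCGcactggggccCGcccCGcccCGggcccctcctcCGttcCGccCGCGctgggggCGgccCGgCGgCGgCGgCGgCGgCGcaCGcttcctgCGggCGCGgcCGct
RPLP2: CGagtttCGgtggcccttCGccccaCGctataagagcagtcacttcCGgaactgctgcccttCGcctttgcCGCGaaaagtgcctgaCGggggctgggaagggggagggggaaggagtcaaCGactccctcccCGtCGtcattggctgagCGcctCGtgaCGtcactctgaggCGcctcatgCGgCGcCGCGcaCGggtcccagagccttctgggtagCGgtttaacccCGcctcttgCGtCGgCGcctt
CD22: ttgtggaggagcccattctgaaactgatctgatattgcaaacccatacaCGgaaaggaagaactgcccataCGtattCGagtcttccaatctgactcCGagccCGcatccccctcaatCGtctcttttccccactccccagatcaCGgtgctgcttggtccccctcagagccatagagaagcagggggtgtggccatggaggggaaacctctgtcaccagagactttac
The CG dinucleotide was counted on the printed strand, and it reads the same on the other strand. In the 300-base window from 250 bases before to 50 after the start, WNT1 held 34, TBX21 23, SDC3 46, RPLP2 32 and CD22 9. The median over 15345 protein-coding genes with a listed promoter was 22, and 73.6% of them held at least 10. The CD22 promoter was thus the one of the 5 below that level, and the other 4 were above the median.

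The libraries differed widely in depth and peak number, and the spread of peak number within each group was larger than the difference between groups. The untreated libraries held 5.12, 22.9 and 32.4 M mapped reads in replicates 1, 2 and 3, and the bryostatin libraries 7.74, 5.33 and 14.5 M. The authors' peak caller, SEACR, gave 819, 24143 and 73265 peaks in untreated replicates 1, 2 and 3. It gave 3424, 2778 and 101702 in the bryostatin libraries. In each group the third replicate had the most peaks, and each group held small and large libraries, so the groups overlapped. The mean was 32742 ± 36981 untreated and 35968 ± 56928 with bryostatin (SD, n = 3), with an exact two-sided permutation p of 0.8. With 3 libraries in each group this test cannot give a p below 0.1.

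The called length also overlapped between groups. Peaks covered 2.43, 83.6 and 217.6 Mb in untreated replicates 1, 2 and 3, and 11.2, 5.38 and 94.8 Mb in the bryostatin libraries. The means were 101.2 ± 108.7 and 37.1 ± 50.01 Mb (SD, n = 3), with an exact permutation p of 0.7. Bryostatin replicate 3 held the most peaks but covered less than untreated replicate 3, and its peaks had a median width of 710 bp against 1930 bp. The lowest peak height was 3 reads in bryostatin replicate 3, 6 in untreated replicate 3, 8 in bryostatin replicate 2 and 10 in the other 3 libraries, so the height needed for a call was not the same in all libraries. Untreated replicate 1 and bryostatin replicate 2, the pair closest in depth, still differed by 819 against 2778 peaks. Whether depth set the peak numbers was not tested.

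Untreated replicate 2 stood apart from the other 5 libraries by its signal over active promoters. The H3K4me3 libraries of the same line gave 11904 merged regions, and untreated replicate 2 called 70.9% of them as H3K27me3, while the other 5 libraries called between 0.538% and 13.1%. Of its peaks, 35.5% lay on an H3K4me3 region, against 1.61% to 7.69% in the others. The mean signal per base of its peaks had a median of 98.7 RPKM on H3K4me3 regions and 39.4 RPKM elsewhere. Of the peaks that lay off H3K4me3, 99.9% overlapped a peak of untreated replicate 3 and 98.0% overlapped one of bryostatin replicate 3. What added signal over active promoters to this library was not tested, and the results are therefore given with and without it.

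Gene starts showed the same split. A peak lay within 1 kb of a start in 1.39%, 57.0% and 27.4% of 20033 protein-coding genes in untreated replicates 1, 2 and 3, and in 3.66%, 2.76% and 28.1% in the bryostatin libraries. The group means were 28.6% ± 27.8 and 11.5% ± 14.4 (SD, n = 3), with an exact permutation p of 0.7. Without untreated replicate 2 the untreated mean was 14.4%, and the exact p was 1. Of all genes, 7655 (38.2%) had a peak in untreated replicate 2 alone. Ribosomal protein genes, which every growing cell transcribes, show this most plainly, since 33 of 36 had a peak in untreated replicate 2, 1 in untreated replicate 3 and 1 in bryostatin replicate 3, and 32 of them in untreated replicate 2 alone. RPLP2, a ribosomal stalk protein, had 162.1 RPKM over its start in that library and no peak in the other 5.

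The peak sets were nested. Of the 819 peaks of untreated replicate 1, 96.2% overlapped a peak of bryostatin replicate 1 and 89.4% one of bryostatin replicate 2, and 99.8% to 100% were found in each of the 3 libraries with the most peaks. Of the peaks of bryostatin replicates 1 and 2, 99.1% to 100% were found in each of these. The smaller libraries thus held mostly places that the larger ones also called, whether the cells were treated or not.

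Merging peaks that overlapped by at least 1 bp gave 98593 regions. Of these, 53505 were called in 1 library, 31280 in 2, 10770 in 3, 1573 in 4, 913 in 5 and 552 (0.56%) in all 6. The most frequent combination, 30504 regions, was untreated replicate 3 with bryostatin replicate 3, the replicates with the most peaks in each group. Next came 27840 regions in untreated replicate 3 alone, 18573 in bryostatin replicate 3 alone and 10740 in these 2 and untreated replicate 2. Another 7092 regions were called in untreated replicate 2 alone, of which 99.97% overlapped an H3K4me3 region and 95.0% held a gene start.

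No region was called in all 3 bryostatin libraries and in no untreated library (0 of 98593, 0% called), and none in the opposite pattern (0 of 98593, 0% called). The nesting left little room for either pattern, so these counts do not show that presence was unchanged. A region lost with bryostatin had to be among the 819 peaks of untreated replicate 1, of which 99.8% overlapped bryostatin replicate 3. A gained one had to lie outside untreated replicate 3, which overlapped 99.97% and 100% of the peaks of bryostatin replicates 1 and 2. When each library was cut to its 819 peaks of highest total signal, 14 of 1506 regions were called in all 3 bryostatin libraries and no untreated one, and 12 in the opposite pattern. At that equal number, 259 regions were called in all 6 libraries and 648 in 1. The called length was still unequal, at 2.43, 10.4 and 18.1 Mb in untreated replicates 1, 2 and 3 and 4.61, 2.45 and 4.51 Mb in the bryostatin libraries. With untreated replicate 2 left out the counts on all peaks stayed at 0. With untreated replicate 1 left out 291 regions were called in both other untreated libraries and no treated one, and none in the opposite pattern. That combination made up 0.295% of the 98593 regions. Those untreated libraries covered 83.6 and 217.6 Mb, against 11.2, 5.38 and 94.8 Mb in the bryostatin libraries, so the count is not read as loss.

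The regions called in all 6 libraries were broad, near genes and shared with other lines. Their median width was 15725 bp, against 1260 bp for regions called in 1 library. A gene start lay within 1 kb in 318 of the 552 (57.6%), against 17.3% of all regions. They overlapped a region called in all 6 H3K27me3 libraries of REH, a precursor B leukaemia line, in 304 cases (55.1%), and one called in replicates 2 and 3 of both groups of NALM-6, another precursor B leukaemia line, in 389 cases (70.5%). Replicate 1 of NALM-6 is not used here because its values are on another scale. The share was 10.97% and 6.23% of all regions, and wide regions overlap others more readily. Any Raji H3K4me3 peak touched 76 of the 552 (13.8%), and any H3K4me2 peak, a mark of active and poised promoters and enhancers, touched 193 (34.96%). The same 552 regions resulted when untreated replicate 2 was not required.

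**Figure D1:**
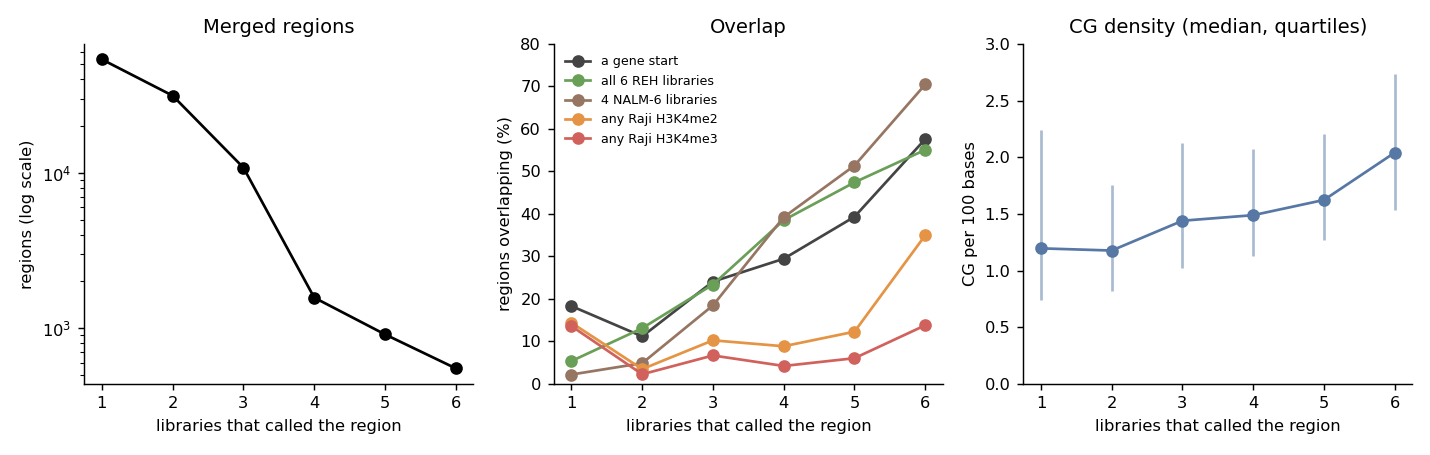
The left panel gives the number of merged regions (log axis) by how many of the 6 libraries called them, the middle panel the percent that overlap a gene start within 1 kb, other lines' H3K27me3 or Raji H3K4 methylation, and the right panel the median number of CG dinucleotides per 100 bases on hg38 with a bar from the lower to the upper quartile. Regions called in all 6 libraries reach 57.6% with a start and 2.04 CG per 100 bases.

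CG density differed with the number of libraries that called a region. The median was 1.20 CG per 100 bases in regions of 1 library, 1.18 in those of 2, 1.44 in those of 3, 1.49 in those of 4, 1.62 in those of 5 and 2.04 in those of all 6. Regions of untreated replicate 2 alone held a median of 6.04 per 100 bases, with a GC content of 59.1% against 53.4% in regions of all 6. These medians compare regions of different width, and are given as a description.

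In total signal, none of the 552 regions passed the test of bryostatin against untreated cells. Total signal is the sum of RPKM over the called bases of a region, and each library was divided by its median over the 552 regions, so that a value of 1 is the typical region of that library. With limma (empirical Bayes with trend, Benjamini-Hochberg adjustment), 0 of 552 had an adjusted p under 0.05 (0% called), and the smallest adjusted p was 0.70. At an unadjusted p under 0.05 there were 20 (3.62%), of which 13 were lower (2.36%) and 7 higher (1.27%) with bryostatin. The 3 treated libraries lay all above or all below the 3 untreated in 57 regions (10.3%), 37 lower (6.7%) and 20 higher (3.62%). The median log2 difference was -0.03 with a median standard error of 0.32, and the differences ran from -1.62 to 1.04. In 4 regions the difference exceeded 1 on the log2 scale in either direction. Differences of the size of this error were not detectable at a single region. RPKM and the division by the median remove a gain or loss shared by all regions, so this test cannot show one.

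The highest correlations were among the 3 libraries with the most peaks, which came from both groups. Across the 552 regions, log2 total signal of untreated replicate 3 correlated with r = 0.97 with untreated replicate 2 and 0.96 with bryostatin replicate 3, but 0.72 with untreated replicate 1. Untreated replicate 1 correlated best with bryostatin replicate 2 (0.79). These are correlations across regions of shared loci, given as a description. The called length of the median region was 2840, 12395 and 15520 bp in untreated replicates 1, 2 and 3, and 5655, 3345 and 10730 bp in the bryostatin libraries, so part of the typical region went uncalled in the smaller libraries. The mean signal per called base had a median of 183.0, 78.3 and 83.6 RPKM untreated and 116.9, 131.3 and 88.4 RPKM with bryostatin, higher where less was called.

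**Figure D2:**
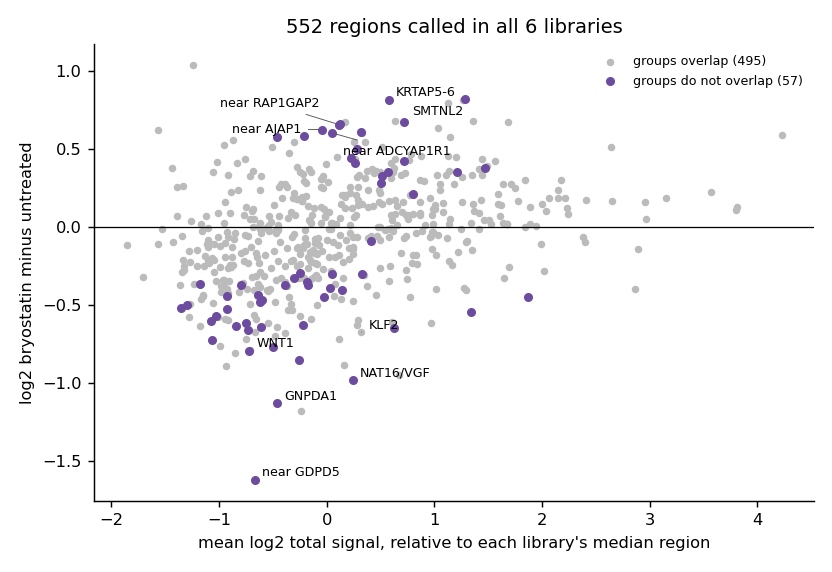
Each point is 1 of the 552 regions called in all 6 libraries, with the mean log2 total signal relative to each library's median region on the x axis and the log2 difference, bryostatin minus untreated, on the y axis. The 57 regions whose groups do not overlap are purple. The 10 named regions have the smallest unadjusted p in each direction, and none passed the adjusted test.

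The regions nearest to a call are given as values that did not pass. The lowest lay at chr11:75532941-75550350, 6999 bp from the nearest start, that of GDPD5, a phosphodiesterase gene. Its total signal was 0.86, 1.21 and 1.31 times the library median in untreated replicates 1, 2 and 3, and 0.24, 0.27 and 0.73 times in the bryostatin libraries. The groups did not overlap, and the log2 difference was -1.62 ± 0.41 (SE, n = 3 per group, limma adjusted p = 0.70). The region was called over 2820, 16170 and 17410 bp untreated and 1580, 1190 and 8150 bp with bryostatin. Its mean signal over the called bases was 149.5, 74.2 and 98.5 RPKM untreated and 98.6, 106.8 and 86.8 RPKM with bryostatin, values that overlapped.

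At chr7:101162051-101181160, which holds the starts of VGF, a secreted neuronal peptide precursor, and NAT16, the values were 1.97, 1.64 and 1.42 untreated and 0.66, 0.88 and 1.02 with bryostatin. The log2 difference was -0.98 ± 0.28 (limma adjusted p = 0.70). All 3 treated libraries lay under all 3 untreated ones, and all 6 Raji H3K4me3 libraries had a peak in this region. The called length was 4860, 16640 and 16210 bp untreated and 4480, 3710 and 9290 bp treated, at a mean of 199.6, 97.9 and 114.7 RPKM and 97.7, 111.8 and 106.6 RPKM. At chr5:142004521-142023310, over the start of GNPDA1, a glucosamine-6-phosphate isomerase, all 3 treated libraries also lay under all 3 untreated ones in total signal. The values were 0.87, 1.17 and 1.22 untreated and 0.49, 0.35 and 0.69 with bryostatin, a log2 difference of -1.13 ± 0.32 (limma adjusted p = 0.70). None of the 6 Raji H3K4me3 libraries had a peak in that region. GNPDA1 was called over 1850, 16840 and 18790 bp untreated and 2790, 1220 and 9260 bp treated, at a mean of 232.7, 68.9 and 84.9 RPKM and 116.5, 134.8 and 72.2 RPKM, so that its mean signal did not separate the groups.

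WNT1, a secreted signalling ligand, lies in chr12:48976421-48990600, where the values were 1.15, 0.68 and 0.66 untreated and 0.38, 0.43 and 0.61 with bryostatin. The groups did not overlap, with a log2 difference of -0.79 ± 0.34 (limma adjusted p = 0.94). The called length was 4290, 9390 and 14180 bp untreated and 3020, 2040 and 7470 bp treated, at a mean of 132.4, 71.8 and 60.9 RPKM and 82.0, 100.6 and 78.4 RPKM. At KLF2, a transcription factor of lymphocyte quiescence, the region chr19:16314871-16336090 gave 2.01, 1.32 and 1.49 untreated and 0.83, 0.89 and 1.32 with bryostatin. Bryostatin replicate 3 reached the level of untreated replicate 2 there, so the groups overlapped. TBX21, the T and NK cell transcription factor T-bet, lies in chr17:47710161-47736110, with 2.29, 1.79 and 1.76 untreated and 0.97, 1.18 and 1.64 with bryostatin. It was chosen for the T and NK cell list, its groups did not overlap, and its log2 difference was -0.65 ± 0.28 (limma adjusted p = 0.94). It was called over 2870, 24250 and 25940 bp untreated and 3830, 3000 and 19940 bp treated, at a mean of 393.5, 73.4 and 88.7 RPKM and 166.7, 186.3 and 79.8 RPKM.

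In the other direction, the region with the smallest p, chr11:1683771-1700890, held the start of KRTAP5-6, a keratin-associated protein gene, with 0.79, 1.34 and 1.35 untreated and 2.04, 2.41 and 1.57 with bryostatin. The log2 difference was 0.81 ± 0.30 (limma adjusted p = 0.94), with all treated libraries above all untreated. Its called length was 2040, 13970 and 17120 bp untreated and 8110, 7200 and 14820 bp treated, at a mean of 190.3, 95.2 and 103.5 RPKM and 166.0, 158.0 and 102.5 RPKM. At SMTNL2, a smoothelin-like gene, chr17:4574561-4602010 gave 0.91, 1.67 and 1.47 untreated and 2.32, 1.99 and 1.95 with bryostatin. Regions nearest to RAP1GAP2, AJAP1 and ADCYAP1R1 differed by 0.65, 0.62 and 0.60 on the log2 scale, each with no overlap between groups and a limma adjusted p of 0.94.

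**Figure D3:**
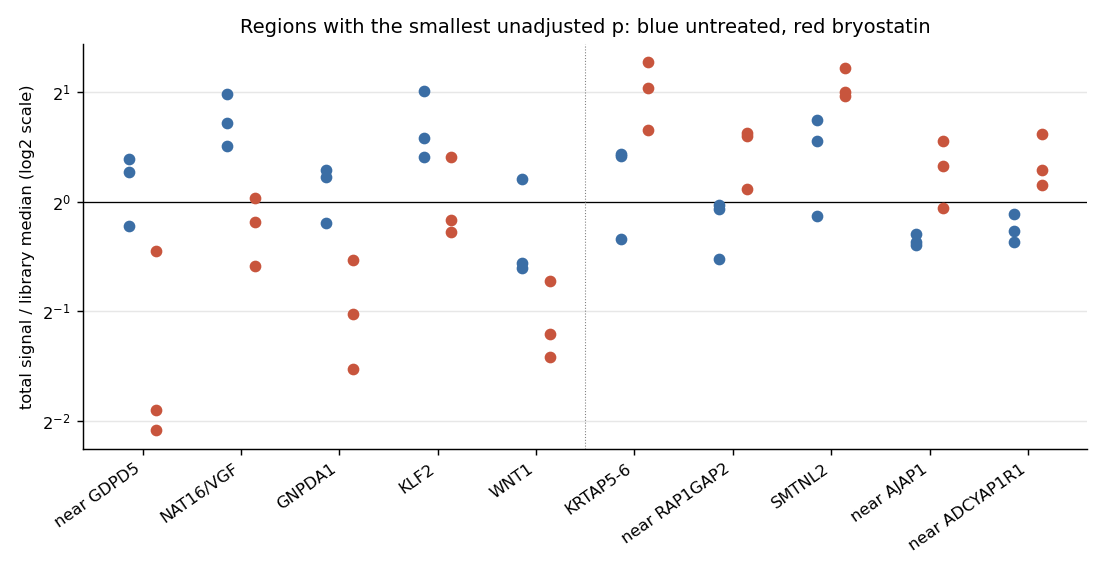
Total signal in multiples of the library's median region (log2 axis) at the 10 regions with the smallest unadjusted p, the 5 lower with bryostatin to the left of the dotted line and the 5 higher to the right. Each point is 1 library, untreated in blue and bryostatin in red, and the groups overlap at KLF2.

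The longest and strongest domains did not separate the groups. SDC3, a syndecan heparan sulphate proteoglycan, lies in chr1:30834391-30921300, with total signal of 24.5, 10.6 and 9.34 times the library median in untreated replicates 1, 2 and 3 and 17.6, 18.0 and 9.55 times with bryostatin. The log2 difference was 0.11 ± 0.47 (limma adjusted p = 0.99). The high values were in the 3 smaller libraries, of both groups. SDC3 was called over 48470, 84050 and 86910 bp untreated and 72580, 52230 and 73120 bp treated, at a mean of 249.1, 125.8 and 140.7 RPKM and 159.4, 163.2 and 126.4 RPKM. The other long domains held MAN1C1 and SELENON, SRCIN1, LRRC32, RHOD and SYT12, DISP3, TSPAN9 or ZBP1, or had no start and overlapped the gene PLXNA1 or TTC34. Their log2 differences ran from 0.05 at SRCIN1 to 0.81 at TSPAN9, and the groups overlapped in all 10. Groups did not overlap in 10.3% of all 552 tested regions, so 10 domains are too few to set apart from that share.

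Among gene starts, CAV1, the main protein of caveolae, had the highest mean signal of the genes with a peak in all 6 libraries. Its start signal, the RPKM of peaks averaged over 2 kb around the start, was 522.1, 258.8 and 395.3 in untreated replicates 1, 2 and 3 and 275.1, 277.8 and 378.5 in the bryostatin libraries. The region over it differed by -0.07 ± 0.40 (limma adjusted p = 0.99). NALM-6 had no H3K27me3 peak at this start and REH had one in 1 of 6 libraries. SOX5, a SOX family transcription factor, had 434.9, 233.1 and 276.3 RPKM untreated and 269.7, 262.1 and 259.7 with bryostatin, with H3K4me3 at the start in all 6 libraries of that mark. In all, 249 genes (1.24% of 20033) had a start peak in all 6 libraries.

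The lists differed most by kind of gene and by library. Of 39 HOX cluster genes, which set position along the body axis, 26 had a start peak in untreated replicate 3 and 28 in bryostatin replicate 3, 66.7% and 71.8% against 27.4% and 28.1% of all genes. In the 2 smaller libraries per group the counts were 2 and 19 in untreated replicates 1 and 2 and 7 and 4 in bryostatin replicates 1 and 2. The shares were 5.13%, 48.7%, 17.9% and 10.3%, beside 1.39%, 57.0%, 3.66% and 2.76% of all genes. In untreated replicate 2 the HOX share was thus below that of all genes. HOXB9 and HOXC6 had a peak in all 6 libraries. HOXB9 had 198.2, 81.3 and 84.3 RPKM untreated and 124.4, 119.6 and 130.7 with bryostatin, and the region over it differed by 0.01 on the log2 scale (limma adjusted p = 0.995). None of the 9 HOX genes on tested regions separated the groups, beside 10.3% of all 552 tested regions. The genes are too few to set apart from that share, and they shared few regions, so they are not independent measurements.

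Neuronal channel and receptor genes had a start peak at 26 of 40 in untreated replicate 3 and 27 in bryostatin replicate 3, 26 of them in both. These are 65% and 67.5% beside 27.4% and 28.1% of all genes, and the counts were 2 and 15 in untreated replicates 1 and 2 and 6 and 5 in bryostatin replicates 1 and 2. The latter shares were 5%, 37.5%, 15% and 12.5%, beside 1.39%, 57.0%, 3.66% and 2.76% of all genes, so untreated replicate 2 went the other way. GRIN1, an NMDA receptor subunit, was called in all 6 libraries. It had 75.4, 79.7 and 86.5 RPKM untreated and 96.5, 60.3 and 97.5 with bryostatin, values that overlapped between groups. Developmental transcription factors had 35 and 27 of 74 in these 2 libraries and signalling ligands 22 and 21 of 42. The shares were 47.3% and 36.5% for the factors and 52.4% and 50% for the ligands. In untreated replicates 1 and 2 and bryostatin replicates 1 and 2 the counts were 2, 19, 6 and 3 for the factors and 3, 15, 6 and 4 for the ligands. Those shares were 2.7%, 25.7%, 8.11% and 4.05% for the factors and 7.14%, 35.7%, 14.3% and 9.52% for the ligands. In untreated replicate 2 both were below the 57.0% of all genes. PAX2, a kidney and eye transcription factor, had 57.2, 72.4 and 85.3 RPKM untreated and 123.3, 72.7 and 118.7 with bryostatin. BMP7, a bone morphogenetic protein, and FGF9, a fibroblast growth factor, also carried the mark in all 6 libraries, and their regions differed by -0.24 and 0.15 on the log2 scale. Of the 3 tested ligand genes, WNT1 was the one whose groups did not overlap, beside 10.3% of all 552 tested regions.

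B cell identity genes carried H3K4me3, as the label requires of a B cell line. Of 30, 29 had H3K4me3 at the start in all 6 H3K4me3 libraries, beside 9894 of all 20033 genes. A start peak of H3K27me3 was found at 24 in untreated replicate 2 but at 1, 4, 2, 2 and 4 in untreated replicates 1 and 3 and bryostatin replicates 1, 2 and 3. In the third replicates of both groups that is 13.3%, beside 27.4% and 28.1% of all genes, and in untreated replicate 2 it is 80% beside 57.0%. In the 3 smaller libraries the share was 3.33%, 6.67% and 6.67%, beside 1.39%, 3.66% and 2.76% of all genes. CD22, a surface antigen targeted in B cell malignancy, had 58.8 RPKM in untreated replicate 2 and no peak in the other 5 libraries, and PAX5, the B lineage factor, had 189.1 RPKM there alone. POU2F2, the B cell factor OCT-2, was the exception, with 206.1, 188.3 and 83.8 RPKM untreated and 128.1, 147.8 and 167.2 with bryostatin, beside H3K4me3 in all 6 libraries of that mark. Its region differed by -0.01 on the log2 scale.

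Markers of other cell types were called in the third replicates of both groups. T and NK cell markers had a peak at 9 of 24 in untreated replicate 3 and 11 in bryostatin replicate 3. Myeloid and erythroid markers had one at 13 and 12 of 23. These are 37.5% and 45.8%, and 56.5% and 52.2%, beside 27.4% and 28.1% of all genes. In untreated replicates 1 and 2 and bryostatin replicates 1 and 2 the counts were 1, 5, 1 and 1, and 0, 9, 1 and 1. In untreated replicate 2 the shares were 20.8% and 39.1%, beside 57.0% of all genes. H3K4me3 was found in none of its 6 libraries at 21 of the 24 T and NK cell markers and 20 of the 23 myeloid and erythroid ones. The same was true of 9080 of all 20033 genes. GATA3, a T cell factor, had 69.2 and 55.1 RPKM in untreated replicates 2 and 3 and 60.3 in bryostatin replicate 3, and no peak elsewhere. CSF1R, the macrophage receptor, had a peak in all libraries but untreated replicate 1. Precursor B and plasma cell genes had a peak at 7 and 9 of 22 in the third replicates (31.8% and 40.9%) and at 11 in untreated replicate 2 (50%). SDC1, the plasma cell antigen CD138, had 55.1, 45.4 and 51.2 RPKM in untreated replicates 2 and 3 and bryostatin replicate 3.

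**Figure D4:**
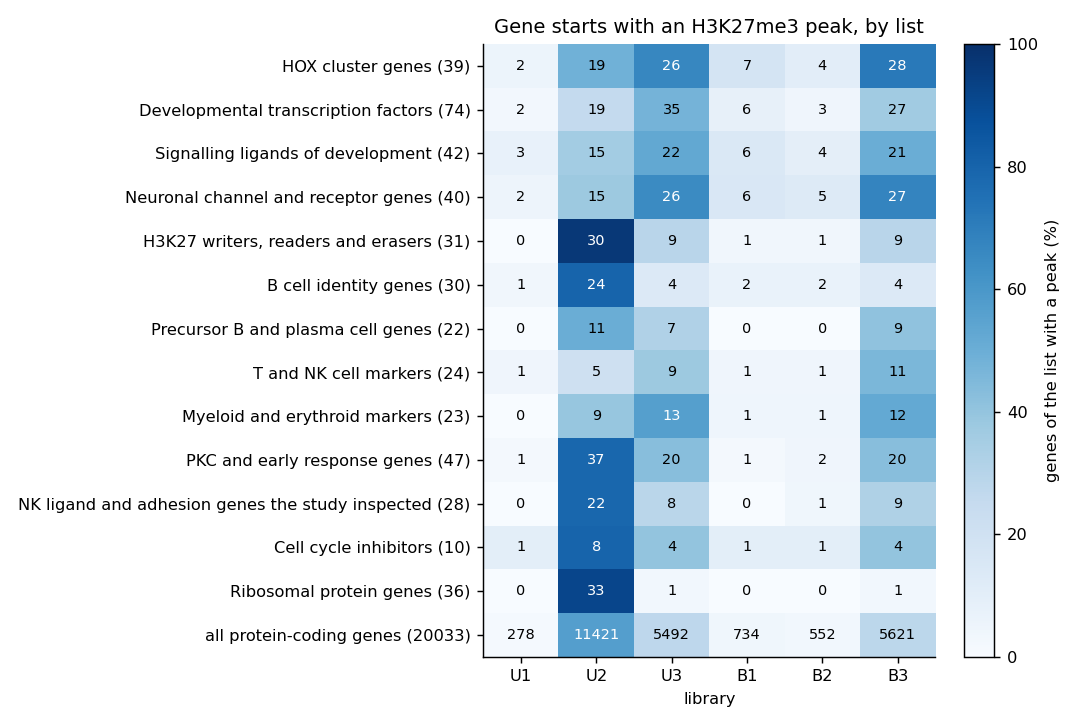
Rows are gene lists with the number of members in brackets, columns the 6 libraries (U untreated, B bryostatin, replicates 1 to 3), the number in each cell is how many members had an H3K27me3 peak within 1 kb of a start, and the shade is the percent of the list. Untreated replicate 2 is the darkest column for ribosomal and B cell identity genes, and among the lists the third replicates of the 2 groups differ most for developmental transcription factors, at 35 and 27.

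Protein kinase C, its relatives and the early response genes it can induce were called in equal numbers in the third replicates. Of these 47 genes, 20 had a start peak in untreated replicate 3 and 20 in bryostatin replicate 3, 18 in both, with 37 in untreated replicate 2 and 1, 1 and 2 in untreated replicate 1 and bryostatin replicates 1 and 2. The shares were 42.6% in replicate 3 of both groups and 78.7% in untreated replicate 2, beside 27.4%, 28.1% and 57.0% of all genes. NR4A2, an orphan nuclear receptor of the early response, had 96.8 and 85.0 RPKM in untreated replicates 2 and 3 and 117.3, 64.2 and 90.0 in the bryostatin libraries, with no peak in untreated replicate 1. ATF3, a stress transcription factor, had 121.5, 120.8 and 91.2 RPKM untreated and a peak in bryostatin replicate 3 alone of the treated libraries, at 86.5. No gene of this list lay on a tested region.

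The ligands and adhesion molecules seen by NK cells were also read. Of 28, 22 had a peak in untreated replicate 2, 8 in untreated replicate 3 and 9 in bryostatin replicate 3, with 0, 0 and 1 in untreated replicate 1 and bryostatin replicates 1 and 2. The shares in the third replicates, 28.6% and 32.1%, were near those of all genes, 27.4% and 28.1%, and the share in untreated replicate 2 was 78.6% against 57.0%. All 8 of untreated replicate 3 were also called in bryostatin replicate 3, among them the stress ligands ULBP1, ULBP2 and ULBP3, the adhesion molecules NECTIN1, NECTIN2 and PVR, and HLA-B and HLA-G. MICA, a stress ligand, was the one gene in bryostatin replicate 3 alone of the pair, at 8.77 RPKM. ULBP2 had 84.4 and 51.9 RPKM in untreated replicates 2 and 3 and 6.37 and 57.6 in bryostatin replicates 2 and 3. ICAM1 and ICAM2, ligands of the integrin LFA-1, had a peak in untreated replicate 2 alone.

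The genes of the machinery of the mark itself were also read. Of 31 writers, readers and erasers of H3K27 methylation, 29 had H3K4me3 at the start in all 6 libraries of that mark. Of all 20033 genes, 9894 did. An H3K27me3 peak was found at 30 of the 31 in untreated replicate 2, 9 in untreated replicate 3 and 9 in bryostatin replicate 3. The share in replicate 3 of both groups, 29.0%, was near the 27.4% and 28.1% of all genes, and the share in untreated replicate 2 was 96.8% against 57.0%. EZH2, the main methyltransferase, had 248.0 RPKM in untreated replicate 2 alone. RNF2, a ubiquitin ligase of Polycomb repressive complex 1, had 131.0 and 84.4 RPKM in untreated replicates 2 and 3 and 102.0, 76.3 and 114.8 in the bryostatin libraries. CBX8, a reader, lay on a tested region, which differed by -0.50 on the log2 scale (limma adjusted p = 0.94). Of 10 cell cycle inhibitors, 8, 4 and 4 had a peak in untreated replicates 2 and 3 and bryostatin replicate 3, and 1 in each other library. These are 80%, 40% and 40%, beside 57.0%, 27.4% and 28.1% of all genes. TP73, a p53 family member, had a peak in all 6, with 251.3, 151.7 and 169.4 RPKM untreated and 116.4, 133.8 and 133.5 with bryostatin. The region differed by -0.64 ± 0.34 (limma adjusted p = 0.94) with no overlap between groups, as in 10.3% of the 552 tested regions.

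The active marks were read at the same places. In Raji, 29 H3K4me3 regions called in all 6 libraries of that mark overlapped the 552 H3K27me3 regions, and 0 of them passed the test, against 14 of 9040 in all (0.155%). At an unadjusted p under 0.05 there were 5 of the 29, against 511 of 9040 (5.65%). Their median log2 difference was 0.02, against -0.01 over all regions. Same-numbered H3K4me3 libraries deviated together, with correlations of 0.54, 0.48 and 0.53 over the 9040 regions. Pairs of unlike number are not given for comparison, and for H3K4me2 the same-numbered values were 0.42, -0.25 and -0.31. The third replicates of both groups were also the H3K4me3 libraries of lowest depth, at 7.01 and 6.71 M mapped reads. Nothing states that equal numbers were paired, so the block is given as an alternative. With the replicate number as a block 4 of the 29 passed, against 132 of 9040 in all (1.46%). Of the 132, 96 were higher with bryostatin, and without the block all 14 that passed were higher. The 4 were higher too, so their direction does not set them apart. They are named after their values were seen, and lay over the starts of PARVG, GDPD5, HELZ2 and MAML3, with log2 differences of 0.71, 0.55, 0.80 and 0.98 on the log2 scale and limma adjusted p of 0.015, 0.036, 0.038 and 0.039. At PARVG, an actin-linker gene of blood cells, the H3K4me3 signal was 0.30, 0.41 and 0.41 times the library median untreated and 0.54, 0.65 and 0.64 times with bryostatin, with no overlap between groups. At GDPD5 the H3K4me3 values were 0.45, 1.03 and 0.94 untreated and 0.79, 1.32 and 1.30 with bryostatin, which overlapped unless taken by replicate number, and the H3K27me3 region over that start differed by -0.38 ± 0.35 (limma adjusted p = 0.94).

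For H3K4me2, 91 of 9316 regions overlapped the H3K27me3 regions. None passed (0 of 9316, 0% called), and 12 of the 91 had an unadjusted p under 0.05, against 626 of 9316 (6.72%). Of the 91, 66 were lower and 25 higher with bryostatin, with a median log2 difference of -0.14 against -0.03 over all. The lower and higher counts over all 9316 are not given, so this balance has no share beside it. The untreated H3K4me2 libraries held 8.31, 6.70 and 13.9 M mapped reads and the treated ones 15.6, 18.8 and 16.1 M. Whether depth set the balance was not tested. The smallest adjusted p was 0.060, at chr1:156659381-156666220, where the values were 0.34, 0.47 and 0.39 times the library median untreated and 0.89, 1.06 and 0.84 times with bryostatin. That region was higher in all treated libraries but did not pass.

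Whether Raji responded unlike REH was tested by a term for line times treatment. Of 119174 merged regions of both lines, 303 were called in all 12 libraries and 0 passed (0% called), with 7 (2.31%) at an unadjusted p under 0.05 and a smallest adjusted p of 0.99 by limma. A difference in response between the lines was not detectable at these regions.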

How the data were processed

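Cut&Tag reads were trimmed with Trim Galore, aligned to hg38 with Bowtie2 and scaled to RPKM in bins of 10 bp by the authors, who called peaks with SEACR (stringent) in each library. Tool versions are not given in the sources used here. The deposited signal of a peak is the sum of RPKM over its bases, with a maximum beside it. The 18 IgG libraries are not used here. Peaks on chromosomes 1 to 22, X and Y were kept. Mapped reads were computed from the RPKM step of 1 read. Regions were peaks merged on an overlap of at least 1 bp. Log2 total signal over regions called in all 6 libraries, with each library set to a median of 0, was tested with limma 3.58.1 (eBayes with trend, Benjamini-Hochberg, 0.05) in R 4.3.3, because the deposited values are not counts. Values per library were compared by exact permutation tests. Gene starts came from GENCODE on hg38. Scripts were tested on simulated data. Named regions were the 5 with the smallest unadjusted p in each direction, since none passed, the 10 longest and the 10 of highest mean signal, and in each list up to 4 members of highest start signal, some of which are not reported here. The members, lists and tests were chosen with earlier results of these data known. Alternatives covered the measure, centring, peak number, merging, windows of 10 kb, the replicate block and leaving out each library. Same-numbered H3K27me3 libraries did not deviate together in every pair, and these numbers were not used for pairing. Those of H3K4me2 did not either, while those of H3K4me3 did. The block was an alternative for each mark, since nothing states a pairing. Read counts behind a peak cover counting error only, and sites with few reads are the least certain.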

Additional observations from a re-analysis of the deposited data

How the results depend on the processing

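No region passed the total-signal test (0 calls) under any of the 18 alternatives run, and the unadjusted count ran from 8 without bryostatin replicate 1 to 195 with regions called in at least 2 libraries of each group (3027 tested). With the replicate block it was 26, and same-numbered libraries correlated at 0.12, -0.22 and 0.40, so the numbers were not read as pairs. Regions in all libraries of one group and none of the other numbered 26 at equal peak number (14 in the treated group, 12 in the untreated), 13 with peaks on H3K4me3 removed, an alternative chosen after seeing the data, and 0 to 291 when leaving out 1 library (291 without untreated replicate 1, 3 without untreated replicate 3, 8 without bryostatin replicate 3, 0 without the others). The difference in peaks per library, 3226 in favour of bryostatin, turned to -2453 with peaks within 1 kb counted as 1, and ran from -29641 to 23487 when leaving out 1 library. It turned without untreated replicate 1 or 2 or bryostatin replicate 3. Called length stayed lower with bryostatin under all alternatives, by 5.93 to 113.5 Mb, and gene starts by 0.92 to 30.7 percentage points. The exact permutation test cannot give a p below 0.1 with so few libraries, so it does not decide these differences. Bryostatin minus untreated, the difference in gene starts was -17.1 percentage points, -2.91 without untreated replicate 2 and -2.59 with peaks on H3K4me3 removed. The interaction with REH stayed at 0 calls. For H3K4me3 at H3K27me3 regions, 4 passed with the replicate block and 5 of 578 with regions of at least 3 libraries, and leaving out 1 library gave 0. H3K4me2 gave 0 calls throughout. Of the named regions, the one near RAP1GAP2 turned to -0.0107 by mean signal, and in windows of 10 kb WNT1 turned to 0.47 and the region near AJAP1 to -0.66, none past the threshold. The cause was not tested.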

Other observations

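The 10 regions of highest mean signal per base were mostly without a gene start, and those at CAV1 and SOX5 held one. The highest, chr22:50640311-50646160, had total signal of 5.58, 3.22 and 3.17 times the library median in untreated replicates 1, 2 and 3 and 3.78, 6.36 and 2.39 times in the bryostatin libraries. It was called in all 6 H3K27me3 libraries of REH and in all 4 of NALM-6. A second, chr10:133685961-133690470, had 2.88, 1.77 and 1.44 untreated and 2.62, 4.18 and 1.41 with bryostatin. At both, untreated replicate 1 and bryostatin replicate 2, the 2 libraries of lowest depth, were the highest of their groups, and the groups overlapped.

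Of the 552 regions, 35 overlapped no H3K27me3 peak of REH or of NALM-6 replicates 2 and 3, and 240 overlapped regions called in all libraries of both lines. The start of BHLHA15, a secretory cell transcription factor chosen after its values were seen, had no peak in REH or NALM-6, with 318.6, 139.3 and 115.6 RPKM in untreated replicates 1, 2 and 3 of Raji and 147.7, 182.6 and 217.4 with bryostatin.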
